A study of Homo sapiens with 8 samples.

Results

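The genes described here encode the actin and actomyosin cytoskeleton. They include actins, the proteins that nucleate, cross-link, cap, sever and anchor actin filaments, and the non-muscle myosin II chains. They also include the small GTPases and ROCK kinases that drive contraction, and the transcription factor SRF, grouped here with LIM-domain proteins. They were chosen by name as a list of 50 symbols, and all 50 were found among the 11644 genes measured at day 2 and among the 14070 genes measured at day 0. The libraries came from H1, a human embryonic stem cell line, by mRNA sequencing. The tested cells are labelled SETD7 KO, a knockout of the lysine methyltransferase gene SETD7, and the controls are labelled WT. Both genotypes were sampled at day 0, with 1 library each, and at day 2 of induced hematopoietic differentiation, with 3 libraries each. The medium is named as a customised TESR with added factors, and the edit, the number of knockout clones and the origin of the replicates were not stated in the sources used here. The p-values therefore measure the spread between these libraries, which may be technical.

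Actin exists as a pool of monomers and as filaments. Profilin and thymosin bind monomers, the Arp2/3 complex starts branched filaments, capping protein closes filament ends, cofilin and gelsolin sever filaments, and alpha-actinin, filamin and transgelin cross-link them. Myosin II pulls on filaments after RhoA and ROCK raise the phosphorylation of its light chain. Free monomeric actin holds the MRTF cofactors of SRF inactive, so that filament assembly and the transcription of actin genes are coupled through SRF. SRF binds a short AT-rich motif called the CArG box, which lies in the promoters of many cytoskeletal genes. SETD7 is a lysine methyltransferase that acts on histone H3 and on other proteins.

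The day 2 libraries held between 29647943 and 39553614 counts in SETD7 KO and between 27880068 and 32230627 in WT. Levels are given as CPM, counts relative to the TMM-scaled size of the library, and are not scaled for gene length. SETD7 itself had 32.9, 28.9 and 33.7 CPM in SETD7 KO libraries, against 54.8, 56.2 and 55.6 CPM in WT libraries (log2 fold change -0.80, adjusted p = 9.51e-13), and 1.48 FPKM in the day 0 SETD7 KO library against 3.53 FPKM in the WT library. SETD7 KO replicate 1 stood apart from the others. Its counts differed from those of the other SETD7 KO libraries by a chi-square per degree of freedom of 8.95 and 6.1, against 3.04 to 4.35 for other pairs within a genotype. Where leaving it out ended a call or moved a called value by over 1.5 times, this is stated beside the gene. The stem cell marker list and the early mesoderm list were both detected at day 2. Their summed levels were 1989.7 to 2036.9 and 3863.8 to 3918.4 CPM in SETD7 KO, and 1926.8 to 1961.8 and 3790.9 to 3838.9 CPM in WT. These sums hide opposed changes. In the first list NANOG fell (log2 fold change -0.575) and TDGF1 rose (0.128). LIN28A and TDGF1 gave most of that sum, while NANOG averaged 5.14 CPM in SETD7 KO and 7.63 CPM in WT. In the second list T (-0.256) and HAND1 (-0.169) fell, and KDR (0.12) and MIXL1 (0.095) rose. The other genes of both lists passed in neither direction.

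The CArG box was searched in the promoter windows that RefSeq provides for GRCh38.p14, which run from 250 bases before to 50 bases after a transcript start. It was searched by its consensus on both strands, and a match is a description of the letters and not a site of binding. Of the 46 genes of the list with a window, 10 held a CArG box (21.7%), against 438 of 27305 genes with a window (1.6%). The list was drawn up to include SRF-associated genes, so this contrast follows in part from how the genes were chosen. By window, the box was in 12 of 83 windows of these genes (14.5%) and in 454 of all 35116 windows (1.29%). The box was present in 2 of the 7 genes that rose at day 2 and had a window, in 3 of the 15 that fell, and in 5 of the 24 that passed the test in neither direction. The windows below belong to the 4 genes with a box and the largest fold changes among those that passed the test, and are shown because the box is the sequence that they share. They are written 5′ to 3′ on the strand of the gene, with the CArG boxes in capitals. The ACTA1 window lies at chr1:229434045-229434344 on the minus strand, with the box from 97 to 88 bases before the start. The TGFB1I1 window lies at chr16:31472955-31473254 on the plus strand, with the box from 51 to 42 bases before the start, and is 1 of 3 windows of that gene. The ACTN1 window lies at chr14:68977517-68977816 on the minus strand, with the box from 171 to 162 bases before the start, and is 1 of 4 windows. The SRF window lies at chr6:43171019-43171318 on the plus strand and holds 2 boxes, from 30 to 21 and from 10 to 1 bases before the start.
ACTA1: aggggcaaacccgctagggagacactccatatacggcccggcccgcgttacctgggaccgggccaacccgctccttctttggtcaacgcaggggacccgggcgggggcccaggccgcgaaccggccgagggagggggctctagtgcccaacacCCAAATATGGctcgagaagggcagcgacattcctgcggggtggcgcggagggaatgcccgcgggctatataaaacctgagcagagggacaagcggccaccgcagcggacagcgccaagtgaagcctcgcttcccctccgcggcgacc
TGFB1I1: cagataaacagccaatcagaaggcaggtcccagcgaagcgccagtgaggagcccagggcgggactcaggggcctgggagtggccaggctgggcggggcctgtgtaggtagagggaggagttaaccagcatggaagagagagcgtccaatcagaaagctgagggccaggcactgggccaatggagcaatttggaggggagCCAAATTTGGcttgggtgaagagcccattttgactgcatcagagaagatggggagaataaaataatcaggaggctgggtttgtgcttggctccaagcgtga
ACTN1: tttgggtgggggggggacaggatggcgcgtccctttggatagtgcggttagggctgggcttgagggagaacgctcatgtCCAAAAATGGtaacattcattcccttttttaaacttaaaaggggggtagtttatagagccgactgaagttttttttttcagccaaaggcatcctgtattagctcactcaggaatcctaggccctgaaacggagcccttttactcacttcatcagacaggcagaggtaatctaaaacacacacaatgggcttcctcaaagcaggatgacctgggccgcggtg
SRF: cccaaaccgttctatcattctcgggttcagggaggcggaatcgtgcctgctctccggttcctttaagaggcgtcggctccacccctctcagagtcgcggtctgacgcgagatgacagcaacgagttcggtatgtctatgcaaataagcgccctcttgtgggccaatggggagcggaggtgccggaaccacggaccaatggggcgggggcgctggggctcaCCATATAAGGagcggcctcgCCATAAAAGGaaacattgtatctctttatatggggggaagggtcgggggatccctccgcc
The 4 windows share the box and differ in its distance to the start. Among the genes that carried it, ACTA1 and ACTN1 were higher in SETD7 KO while TGFB1I1 and SRF itself were lower, so the genes with a box did not move one way. The other genes of the list with a box were CNN2, which also fell, and ACTG1, FHL2, FLNA, ROCK2 and TPM4, which passed the test in neither direction.

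At day 2, skeletal alpha-actin rose more than any other gene of the list, a group of filament cross-linkers and contractile regulators rose modestly, and SRF, cofilins, profilin and subunits of the Arp2/3 complex fell modestly. All 50 genes passed the filter on low counts. At an adjusted p under 0.05, 8 of the 50 rose (16.0%), against 12.3% of the 11475 genes tested, and 15 fell (30.0%), against 11.0% of the genes tested. The other 27 passed in neither direction, and 28 of the 50 had an unadjusted p under 0.05. Genes with many counts pass more often. Among the 39 genes of the list with at least 100 CPM, 6 rose (15.4%) and 10 fell (25.6%). At that level 13.6% of all 2317 tested genes rose and 21.4% fell. Above this floor the list therefore stood close to the background in both directions. Genes under 100 CPM were not compared with a background of their own. Of these in the list, ACTA1 and GSN rose, and TGFB1I1, CFL2, ARPC1A, ARPC5 and RHOC fell. The median log2 fold change was -0.06 over the list and -0.003 over all genes tested.

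The changes were small. Apart from ACTA1 the log2 fold changes ran from -0.284 to 0.237, and 2 of the 50 genes, ACTA1 and TGFB1I1, lay past a 1.2-fold difference. All 3 SETD7 KO libraries lay above all 3 WT libraries for 6 genes of the list (12%), against 18.9% of all genes tested. All 3 lay below all 3 WT libraries for 17 (34.0%), against 18.8%. These shares of all genes were not matched for level, and the part of level in the difference was not tested. Of the 23 genes that passed the test, 19 did not overlap between genotypes, and the 4 that overlapped were GSN, MYH10, ARPC1A and ZYX. The list as a whole took 2.63%, 2.61% and 2.63% of all counts in SETD7 KO libraries and 2.62%, 2.67% and 2.68% in WT libraries, ranges that overlap. Over the TMM-scaled library size used for all other levels the ranges did not overlap, with 2.60%, 2.60% and 2.62% in SETD7 KO libraries and 2.64%, 2.68% and 2.70% in WT libraries.

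**Figure D1:**
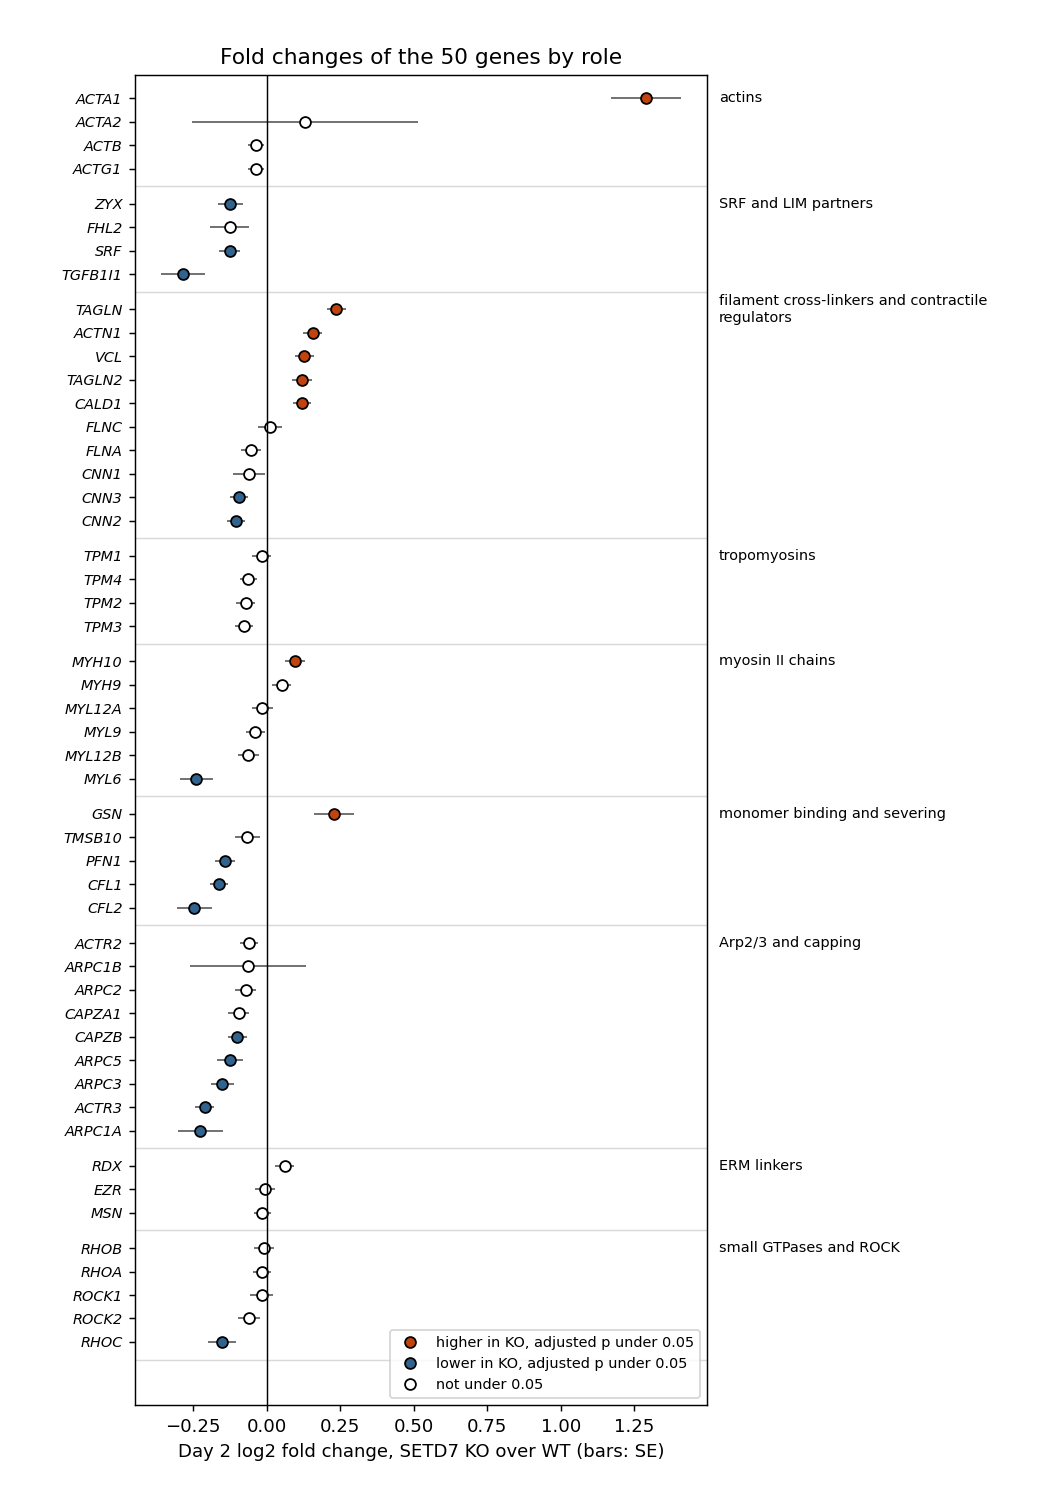
Day 2 log2 fold change, SETD7 KO over WT, of each of the 50 genes, grouped by role, with bars for the SE of the edgeR fit and filled points for an adjusted p under 0.05. ACTA1 stands alone at 1.29, the cross-linkers hold 5 of the 8 genes that rose, and no gene of the Arp2/3 and capping group lies above 0.

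Of the 4 actins, ACTA1 passed the test. ACTA1 encodes skeletal muscle alpha-actin, a sarcomeric isoform, and lies on chromosome 1 from 229431245 to 229434098 (GRCh38). It had 11.6, 11.3 and 14 CPM in SETD7 KO libraries, against 4.63, 4.8 and 5.61 CPM in WT libraries, a 2.44-fold difference (log2 fold change 1.29, SE 0.12, adjusted p = 4.99e-10). Every SETD7 KO library lay far above every WT library. Set against the cytoplasmic beta-actin gene in the same library, ACTA1 had 2.34, 2.28 and 2.77 counts per 1000 ACTB counts in SETD7 KO and 0.931, 0.928 and 1.08 in WT.

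The cytoplasmic actins, which build the filaments of every non-muscle cell, did not pass the test. ACTB had 4966.7, 4926.1 and 5077.9 CPM in SETD7 KO libraries, against 4974.7, 5170.8 and 5204.1 CPM in WT libraries (log2 fold change -0.04, SE 0.028, adjusted p = 0.384). ACTG1, the gamma isoform, had 4245.9, 4308.7 and 4397.5 CPM in SETD7 KO libraries, against 4351.7, 4441.1 and 4488.4 CPM in WT libraries (log2 fold change -0.04, SE 0.028, adjusted p = 0.377). The genotypes overlapped for both genes, although ACTG1 was called lower with length and GC offsets (adjusted p = 0.0354). The ratio of ACTG1 to ACTB overlapped too, at 865 ± 9.92 counts per 1000 ACTB counts in SETD7 KO and 865 ± 8.33 in WT (SD, n = 3 each). ACTB and ACTG1 have 10 and 20 annotated pseudogenes named after them, and how reads shared with such copies were counted is not given. ACTA2, the smooth muscle isoform, was close to the floor of detection in the day 2 counts. It had 0.674, 0.487 and 0.672 CPM in SETD7 KO libraries and 0.651, 0.343 and 0.697 CPM in WT libraries. Its SE of 0.385 leaves a difference of the size seen for most of the list undetectable. Exons of ACTA2 overlap those of ACTA2-AS1 and FAS on the other strand, and how shared reads were counted is not given.

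Other muscle genes did not move one way with ACTA1. Of 19 muscle markers 6 were tested at day 2. The other 13, among them TNNT2, MYH6, MYH7, DES, MYOD1 and MYOG, were not among the genes measured at day 2. ACTC1, the cardiac alpha-actin, had 160, 172 and 166 CPM in SETD7 KO libraries, against 124, 124 and 131 CPM in WT libraries (log2 fold change 0.39, adjusted p = 1.30e-09), so both sarcomeric actins that were measured rose. NKX2-5, a cardiac transcription factor, fell by 0.36 on the log2 scale, MYL4, an atrial myosin light chain, fell by 0.38, and SMTN, smoothelin, fell by 0.22. The summed level of the 6 markers was 298 to 315 CPM in SETD7 KO and 284 to 290 CPM in WT. ACTC1 alone carried that difference, since the other 5 markers summed to 138 to 144 CPM in SETD7 KO and 159 to 160 CPM in WT. The part of these markers in the ACTA1 result was not tested. In bulk RNA, more cells that express a gene and more RNA per cell cannot be told apart.

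**Figure D2:**
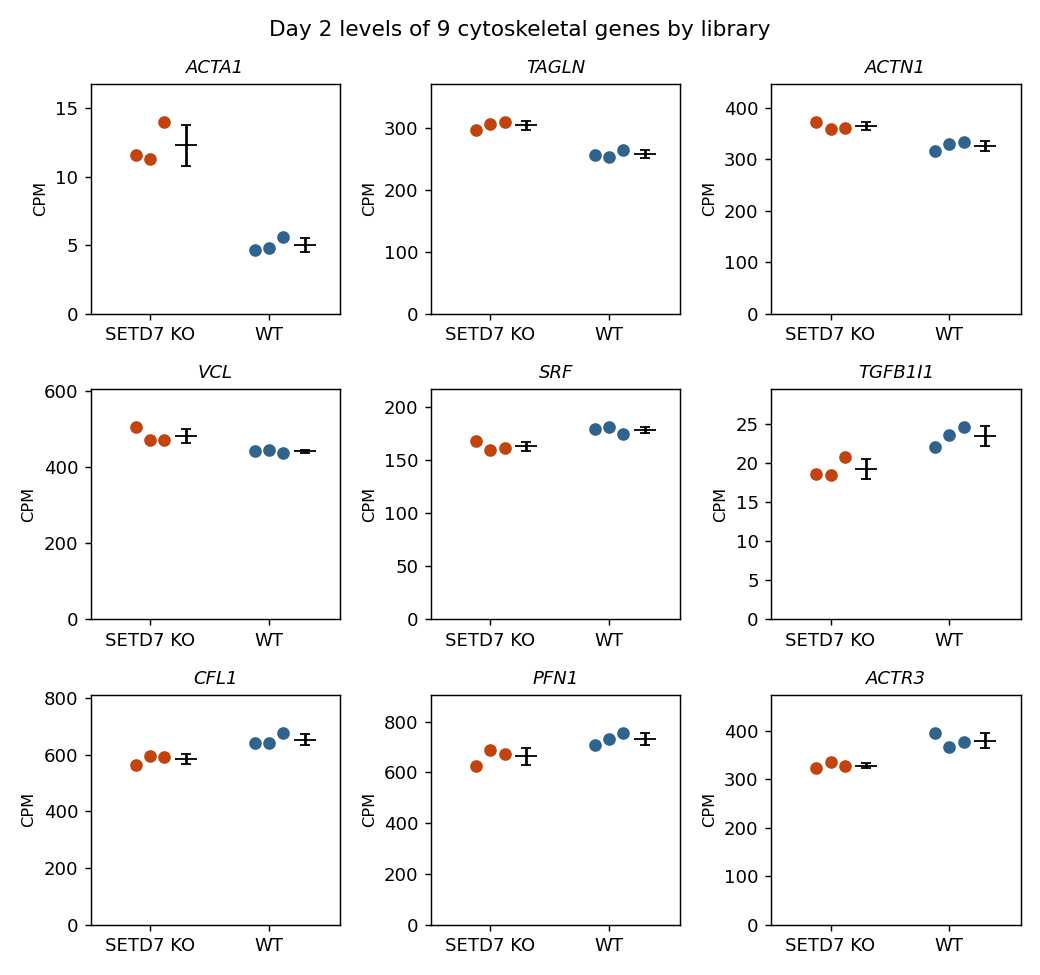
Day 2 level in CPM of 9 genes, with 1 point per library, SETD7 KO left of WT, and the mean ± SD (n = 3) beside the points. ACTA1, TAGLN, ACTN1 and VCL are higher in all 3 SETD7 KO libraries, and SRF, TGFB1I1, CFL1, PFN1 and ACTR3 are lower in all 3.

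SRF fell, as did 2 of the 3 LIM-domain genes grouped with it, though not its cofactor FHL2. For comparison, 11.0% of all genes tested fell, and 21.4% of those with at least 100 CPM. SRF, the transcription factor that binds CArG boxes, had 168, 160 and 162 CPM in SETD7 KO libraries, against 180, 181 and 175 CPM in WT libraries (log2 fold change -0.13, SE 0.035, adjusted p = 0.00735). TGFB1I1, also called Hic-5, a focal adhesion LIM protein, had 18.6, 18.4 and 20.7 CPM in SETD7 KO libraries, against 22.0, 23.6 and 24.5 CPM in WT libraries (log2 fold change -0.28, SE 0.074, adjusted p = 0.0045). All SETD7 KO libraries lay below all WT libraries for both genes. ZYX, zyxin, which binds strained stress fibres, had 144 ± 9.0 CPM in SETD7 KO and 157 ± 8.48 CPM in WT (SD, n = 3 each; log2 fold change -0.12, adjusted p = 0.0387). The genotypes overlapped for ZYX, and its call held in 8 of 15 alternative settings. It was lost without SETD7 KO replicate 2 (log2 fold change -0.08), without SETD7 KO replicate 3, without WT replicate 2 or without WT replicate 3. The ZYX call was also lost with upper-quartile scaling, with replicate number as a block and in DESeq2. FHL2, a LIM-only cofactor of SRF, had a log2 fold change of -0.125 and an adjusted p of 0.178.

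The filament cross-linkers and contractile regulators held 5 of the 8 genes that rose. Of its 10 members 5 rose and 2 fell, beside the 12.3% and 11.0% of all genes tested and the 13.6% and 21.4% of genes with at least 100 CPM given above. TAGLN, transgelin, an actin cross-linker known as a smooth muscle marker, had 296, 306 and 309 CPM in SETD7 KO libraries, against 255, 253 and 264 CPM in WT libraries (log2 fold change 0.24, SE 0.032, adjusted p = 9.06e-07). ACTN1, the alpha-actinin that bundles stress fibres, had 373, 359 and 362 CPM in SETD7 KO libraries, against 316, 331 and 334 CPM in WT libraries (log2 fold change 0.16, SE 0.032, adjusted p = 0.000385). VCL, vinculin, which links actin to adhesions, had 504, 471 and 472 CPM in SETD7 KO libraries, against 442, 445 and 436 CPM in WT libraries (log2 fold change 0.13, SE 0.032, adjusted p = 0.00293). The groups did not overlap for any of these genes. CALD1, caldesmon, which restrains actomyosin, had 368, 367 and 365 CPM in SETD7 KO libraries, against 342, 336 and 335 CPM in WT libraries (log2 fold change 0.12, SE 0.030, adjusted p = 0.00363). TAGLN2, a broadly expressed transgelin, had 203, 209 and 209 CPM in SETD7 KO libraries, against 189, 189 and 192 CPM in WT libraries (log2 fold change 0.12, SE 0.033, adjusted p = 0.00667). These 2 genes did not overlap either.

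Of the 3 calponins, which bind filaments and oppose their turnover, CNN2 and CNN3 fell and CNN1 did not pass. CNN2 had 331, 325 and 333 CPM in SETD7 KO libraries, against 352, 356 and 355 CPM in WT libraries (log2 fold change -0.10, SE 0.031, adjusted p = 0.0113), with no overlap. The CNN2 call was lost without WT replicate 2 or without WT replicate 3, and 11 annotated pseudogenes carry its name. CNN3 averaged 411 ± 13.3 CPM in SETD7 KO and 438 ± 5.42 CPM in WT (SD, n = 3 each). Its log2 fold change was -0.09, with an adjusted p of 0.0271, and its call held in 8 of 15 alternative settings. It was lost without any 1 of 5 libraries, the exception being SETD7 KO replicate 2. The CNN3 call was also lost with upper-quartile scaling and with replicate number as a block. CNN1, the smooth muscle calponin, had a log2 fold change of -0.06 and an adjusted p of 0.456. Set against CNN1 in the same library, TAGLN had 6413.2 ± 350 counts per 1000 CNN1 counts in SETD7 KO and 5218.6 ± 226 in WT. The filamins, which cross-link filaments into networks, passed in neither direction, with log2 fold changes of -0.05 for FLNA and 0.01 for FLNC. FLNA was called lower without SETD7 KO replicate 1 and with length and GC offsets, and with those offsets FLNC reversed to -0.08 and was called lower.

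Of 8 markers of fibroblasts and stroma 6 were tested. COL1A2, PDGFRB, COL1A1 and POSTN rose, LUM fell by 0.575 on the log2 scale (adjusted p = 0.00773), and THY1 did not pass. Their summed level was 547 to 577 CPM in SETD7 KO and 399 to 424 CPM in WT. COL1A2, a collagen chain, gave most of that sum, with 360 ± 8.20 CPM in SETD7 KO and 246 ± 5.40 CPM in WT (SD, n = 3 each), and the other 5 summed to 195 to 209 CPM in SETD7 KO and 159 to 176 CPM in WT. The part of these markers in the rise of TAGLN, ACTN1, VCL, CALD1 and TAGLN2 was not tested.

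The tropomyosins, which run along filaments and set which myosins and severing proteins reach them, passed in neither direction. Their log2 fold changes were -0.02 for TPM1, -0.07 for TPM2, -0.08 for TPM3 and -0.06 for TPM4. TPM2, TPM3 and TPM4 nevertheless lay lower in all 3 SETD7 KO libraries, for example TPM3 with 537, 558 and 557 CPM in SETD7 KO libraries and 576, 581 and 585 CPM in WT libraries (adjusted p = 0.0624). TPM3 passed the threshold with limma-voom and with length and GC offsets, so for this gene the call turns on the setting.

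Among the 6 myosin II chains 1 rose and 1 fell, beside 12.3% and 11.0% of all genes tested. Of the tested genes with at least 100 CPM, 13.6% rose and 21.4% fell. MYH10, the heavy chain of non-muscle myosin IIB, averaged 577 ± 26.5 CPM in SETD7 KO and 540 ± 18.4 CPM in WT (SD, n = 3 each; log2 fold change 0.10, adjusted p = 0.0354). The genotypes overlapped, and MYH10 lost its call without SETD7 KO replicate 1 (log2 fold change 0.06), and without SETD7 KO replicate 3, WT replicate 1 or WT replicate 3. Its call was also lost in DESeq2 and with replicate number as a block. MYL6, the essential light chain, had 400, 468 and 466 CPM in SETD7 KO libraries, against 540, 525 and 508 CPM in WT libraries (log2 fold change -0.24, SE 0.057, adjusted p = 0.0128). SETD7 KO replicate 1 was the lowest library for MYL6, whose log2 fold change was -0.164 without it (adjusted p = 3.82e-06), and the adjusted p was 0.0617 with length and GC offsets. Exons of MYL6 overlap those of AC034102.5, MYL6B and SMARCC2, and 5 annotated pseudogenes carry its name. MYH9, the heavy chain of myosin IIA, and the regulatory light chains MYL9, MYL12A and MYL12B had log2 fold changes between -0.06 and 0.05 and passed in neither direction.

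Of the 5 genes for monomer binding and severing, the cofilins and profilin fell and gelsolin rose. For comparison, 11.0% of all genes tested fell and 12.3% rose. With at least 100 CPM these shares were 21.4% and 13.6%. CFL1, the main cofilin of non-muscle cells, had 563, 596 and 593 CPM in SETD7 KO libraries, against 641, 643 and 677 CPM in WT libraries (log2 fold change -0.16, SE 0.032, adjusted p = 0.000228). CFL2, the muscle cofilin, had 39.2, 47.3 and 45.0 CPM in SETD7 KO libraries, against 52.9, 50 and 52.9 CPM in WT libraries (log2 fold change -0.25, SE 0.059, adjusted p = 0.00228). PFN1, profilin, which loads monomers with ATP and feeds them to growing ends, had 626, 689 and 672 CPM in SETD7 KO libraries, against 707, 731 and 755 CPM in WT libraries (log2 fold change -0.14, SE 0.034, adjusted p = 0.00205). In each of these genes all SETD7 KO libraries lay below all WT libraries, and SETD7 KO replicate 1 was the lowest. Without that library CFL2 had a log2 fold change of -0.166 and was still called (adjusted p = 0.0231). CFL1 and PFN1 also fell against ACTB in the same libraries, with 117 ± 3.83 and 133 ± 6.87 counts per 1000 ACTB counts in SETD7 KO and 128 ± 3.04 and 143 ± 1.95 in WT. CFL1 and PFN1 have 8 and 10 annotated pseudogenes named after them, and how reads shared with such copies were counted is not given. GSN, gelsolin, averaged 33.0 ± 2.32 CPM in SETD7 KO and 28.1 ± 2.37 CPM in WT (SD, n = 3 each; log2 fold change 0.23, adjusted p = 0.0129), with overlap, and its call was lost without SETD7 KO replicate 3 or without WT replicate 1. TMSB10, a thymosin that sequesters monomers, had a log2 fold change of -0.065 and an adjusted p of 0.289, and of -0.019 without SETD7 KO replicate 1. With length and GC offsets it turned to 0.038, also short of the threshold.

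Of the 9 genes of the Arp2/3 and capping group none rose and 5 fell, beside the 12.3% higher and 11.0% lower of all genes tested and the 13.6% and 21.4% of genes with at least 100 CPM. ACTR3, the Arp3 subunit, had 323, 335 and 328 CPM in SETD7 KO libraries, against 396, 366 and 378 CPM in WT libraries (log2 fold change -0.21, SE 0.033, adjusted p = 7.93e-06). ARPC3 had 130, 144 and 146 CPM in SETD7 KO libraries, against 156, 156 and 153 CPM in WT libraries (log2 fold change -0.15, SE 0.040, adjusted p = 0.00524). Neither gene overlapped between genotypes. The log2 fold change of ARPC3 was -0.093 without SETD7 KO replicate 1 (adjusted p = 0.0489) and -0.078 with length and GC offsets (adjusted p = 0.0466). ARPC1A, ARPC5 and the capping subunit CAPZB fell by 0.226, 0.125 and 0.099 on the log2 scale, with adjusted p of 0.0296, 0.0388 and 0.0265. These 3 calls were less stable: each was lost without SETD7 KO replicate 1, where ARPC1A had a log2 fold change of -0.14, without SETD7 KO replicate 3 and without WT replicate 3, ARPC1A also without WT replicate 1, and ARPC5 and CAPZB also without WT replicate 2. All 3 were also lost with replicate number as a block, ARPC5 and CAPZB with upper-quartile scaling, and ARPC1A and ARPC5 in DESeq2. ACTR2, the Arp2 subunit, ARPC2, ARPC1B and CAPZA1 had log2 fold changes between -0.09 and -0.06 and passed in neither direction, CAPZA1 with an adjusted p of 0.0533. ARPC1A and ARPC1B both overlap the exons of AC004922.1 on the same strand, and how shared reads were counted is not given.

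The linkers between filaments and the membrane, EZR, RDX and MSN, had log2 fold changes of -0.005, 0.06 and -0.015 and passed in neither direction. RDX was called higher without SETD7 KO replicate 1 and with length and GC offsets. Of the contractile pathway, RHOA had 516, 554 and 538 CPM in SETD7 KO libraries, against 538, 542 and 545 CPM in WT libraries. RHOB had 210, 211 and 212 CPM in SETD7 KO libraries, against 207, 212 and 218 CPM in WT libraries. The genotypes overlapped for both, with log2 fold changes of -0.015 and -0.009. RHOC, a small GTPase linked to cell motility, had 58.5, 62.6 and 64.4 CPM in SETD7 KO libraries, against 68.3, 68.3 and 69.3 CPM in WT libraries (log2 fold change -0.15, SE 0.048, adjusted p = 0.0173). RHOC did not overlap, and its call was lost without SETD7 KO replicate 1 or without WT replicate 3. The kinase ROCK1 had 161, 148 and 147 CPM in SETD7 KO libraries, against 152, 155 and 156 CPM in WT libraries, and ROCK2 had 134, 128 and 124 CPM in SETD7 KO libraries, against 135, 136 and 132 CPM in WT libraries. Both ROCK genes overlapped between genotypes, with adjusted p of 0.794 and 0.271.

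Of the 23 genes that passed, 13 also passed in every alternative setting except a test against a 1.2-fold change: ACTA1, TAGLN, TAGLN2, CALD1, ACTN1 and VCL among those that rose, and SRF, TGFB1I1, CFL1, CFL2, PFN1, ACTR3 and ARPC3 among those that fell. Against a 1.2-fold change, ACTA1 alone remained. Without SETD7 KO replicate 1 there were 8 genes higher, 7 of them the same, and 11 lower, 10 of them the same. In that library genes with short transcripts lay lower than in the others. Its median deviation over genes with transcripts under 1500 bases was -0.0784 on the log2 scale, and over genes with transcripts of over 6000 bases it was 0.038, while the other libraries stayed between -0.0173 and 0.0372. The median longest transcript was 3560 bases for the genes of the list that rose and 2165 bases for those that fell. The trend moved with both groups, and with length and GC offsets fitted out, an alternative chosen after seeing the data, 9 genes were higher and 21 lower, with all the original calls retained except MYL6.

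**Figure D3:**
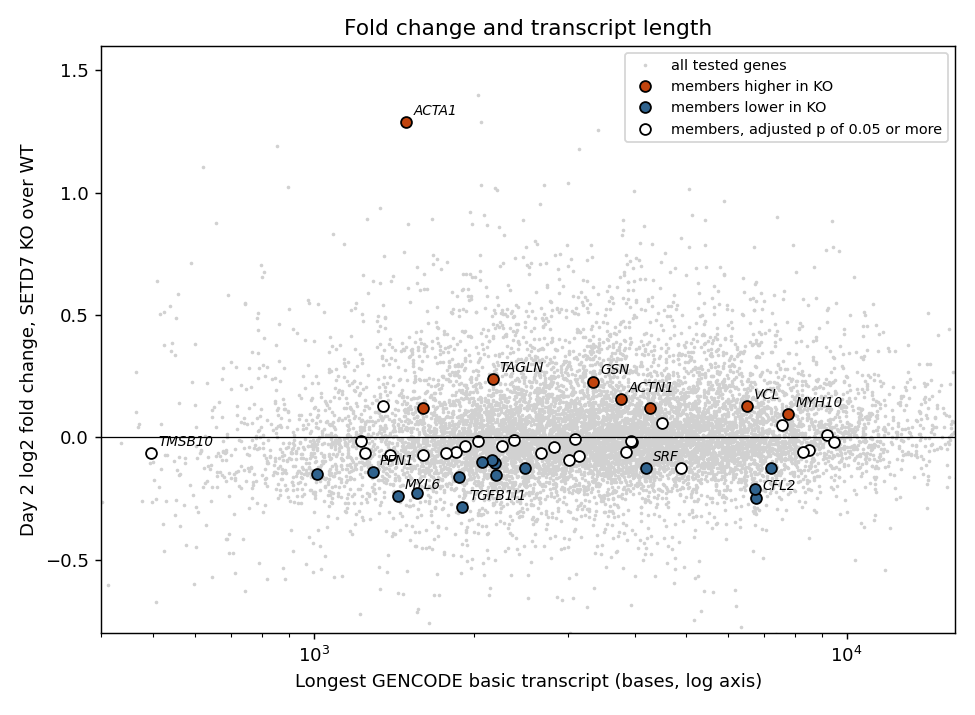
Day 2 log2 fold change, SETD7 KO over WT, against the longest annotated transcript in bases (log axis), with all tested genes in grey, of which a few lie outside the axes, and the 50 genes as circles filled by their call. Genes that fell are found among short and long transcripts, CFL2 among the long ones, and ACTA1 stands above every other gene of the list.

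Cytoskeletal genes outside the list were measured as well, in 5 lists of 121 genes in all, of which 113 were tested. Of these 18 rose (15.9%) and 19 fell (16.8%), beside 12.3% and 11.0% of all genes tested, shares that were not matched for level. Of 8 tested SRF cofactors none rose and 1 fell, PHACTR4, a binder of actin monomers (log2 fold change -0.15, adjusted p = 0.0142). MYOCD, MKL2 and ELK3, cofactors that act with SRF, had log2 fold changes of -0.134, -0.135 and 0.083 and passed in neither direction. Formins and WAVE/WASP nucleators, which start linear filaments or switch on Arp2/3, had 6 genes that rose and 4 that fell of 22. WASF3 rose with a log2 fold change of 0.25, while WASL, DIAPH1 and BRK1 fell by 0.235, 0.156 and 0.194. Regulators and effectors of small GTPases had 2 that rose and 4 that fell of 25, with ECT2, ANLN and CDC42 falling by 0.27, 0.16 and 0.14 and ARHGEF1 rising by 0.22 on the log2 scale.

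Focal adhesion and stress fibre genes had 6 that rose and 3 that fell of 26 tested. Of all genes tested 12.3% rose and 11.0% fell, and of those with at least 100 CPM 13.6% rose and 21.4% fell. PDLIM1, a PDZ-LIM protein of stress fibres, rose by 0.24, PTK2, focal adhesion kinase, rose by 0.14, and ITGB1, integrin beta, rose by 0.10, whereas CSRP1, a LIM protein that binds alpha-actinin, fell by 0.25. Other actin-binding and turnover genes had 4 that rose and 7 that fell of 32 tested, to be read beside the same shares. MYO10, the motor of filopodia, rose by 0.26, LCP1, a plastin, rose by 0.39, and MARCKSL1 fell by 0.22.

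**Figure D4:**
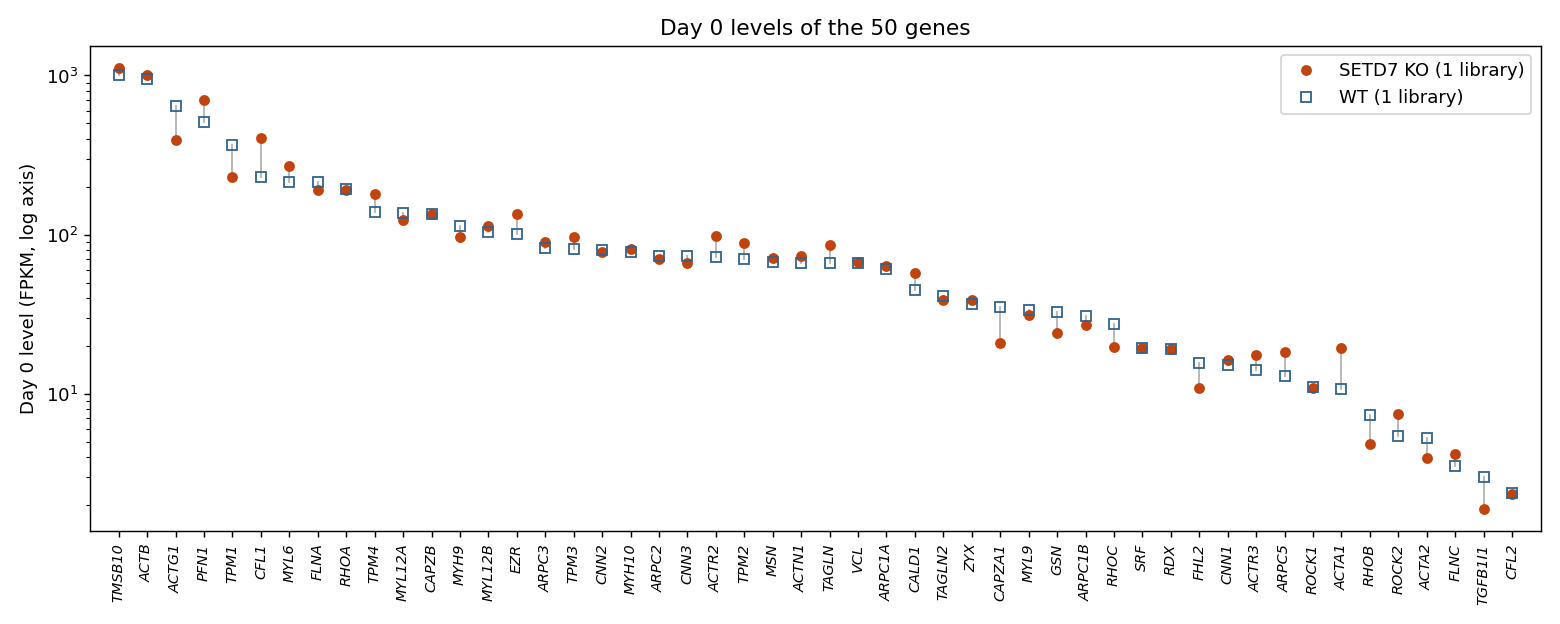
Day 0 level in FPKM (log axis) of the 50 genes, ordered by the WT level, with 1 SETD7 KO library as circles and 1 WT library as squares, joined by a line. Past 1.5-fold on the log2(FPKM + 1) scale, which is not the scale drawn, ACTA1 and CFL1 were higher in SETD7 KO, and ACTG1, TPM1 and CAPZA1 lower. On the axis drawn, TGFB1I1 (1.89 FPKM in SETD7 KO, 3.01 in WT) and RHOB (4.82 and 7.31) also lie apart.

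At day 0, before differentiation, ACTA1 was again higher in SETD7 KO and most other genes of the list differed little. With 1 library per genotype there is no replicate check and no test, and the depth is unknown. All 50 genes had at least 1 FPKM in either library. Past 1.5-fold, on the log2(FPKM + 1) scale, 2 of the 50 were higher (4.0%), against 4.81% of the 13284 genes compared, and 3 were lower (6.0%), against 8.77%. Both shares were near the background. The median log2 ratio was 0.04 over the list and -0.03 over all genes compared.

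FPKM are scaled for length, so levels can be set side by side across genes. TMSB10 and ACTB were the highest, with 1114.7 and 1001.5 FPKM in SETD7 KO and 1013.0 and 957 FPKM in WT. PFN1 had 706 FPKM in SETD7 KO and 511 FPKM in WT, and ACTG1 had 393 FPKM in SETD7 KO and 641 FPKM in WT (log2 ratio -0.71). The other genes past 1.5-fold were ACTA1 with 19.3 FPKM in SETD7 KO and 10.7 FPKM in WT (log2 ratio 0.80) and CFL1 with 402 FPKM in SETD7 KO and 231 FPKM in WT (log2 ratio 0.80), both higher. TPM1 had 229 FPKM in SETD7 KO and 368 FPKM in WT (log2 ratio -0.68), and CAPZA1 had 20.8 FPKM in SETD7 KO and 35.1 FPKM in WT (log2 ratio -0.73), both lower. Within the list, ACTA1 alone was higher past 1.5-fold at day 0 and higher by the test at day 2. CFL1 was higher at day 0 and lower at day 2.

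Of the genes that rose at day 2, TAGLN had 85.6 FPKM in SETD7 KO and 66.5 FPKM in WT, CALD1 had 57.6 FPKM in SETD7 KO and 45.0 FPKM in WT, and ACTN1 had 73.0 FPKM in SETD7 KO and 66.7 FPKM in WT. All these lay in the day 2 direction at less than 1.5-fold. VCL had 67.3 FPKM in SETD7 KO and 66.1 FPKM in WT, a near equal pair. TAGLN2, with 38.7 FPKM in SETD7 KO and 41.2 FPKM in WT, and GSN, with 24.1 FPKM in SETD7 KO and 32.8 FPKM in WT, lay the other way. Of the genes that fell, TGFB1I1 had 1.89 FPKM in SETD7 KO and 3.01 FPKM in WT, and RHOC had 19.6 FPKM in SETD7 KO and 27.4 FPKM in WT, both in the day 2 direction. SRF differed little, with 19.3 FPKM in SETD7 KO and 19.5 FPKM in WT, as did CFL2, with 2.33 FPKM in SETD7 KO and 2.39 FPKM in WT, and CNN2, with 77.9 FPKM in SETD7 KO and 79.5 FPKM in WT. ACTR3, with 17.5 FPKM in SETD7 KO and 14.2 FPKM in WT, and ARPC3, with 89.4 FPKM in SETD7 KO and 82.7 FPKM in WT, lay the other way. Of the 23 genes that passed at day 2, 12 had the same direction at day 0. The matching share of all genes that passed was not computed. A related set is the genes whose genotypes did not overlap at day 2. In that set 47.8% of the genes of the list lay in the opposite direction at day 0, against 59.9% of all genes. RHOA had 191 FPKM in SETD7 KO and 194 FPKM in WT, and ROCK1 had 10.9 FPKM in SETD7 KO and 11.0 FPKM in WT. RHOB had 4.82 FPKM in SETD7 KO and 7.31 FPKM in WT, and ROCK2 had 7.41 FPKM in SETD7 KO and 5.39 FPKM in WT, differences that stayed under 1.5-fold on the log2(FPKM + 1) scale. ACTA2 had 3.96 FPKM in SETD7 KO and 5.29 FPKM in WT.

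**Figure D5:**
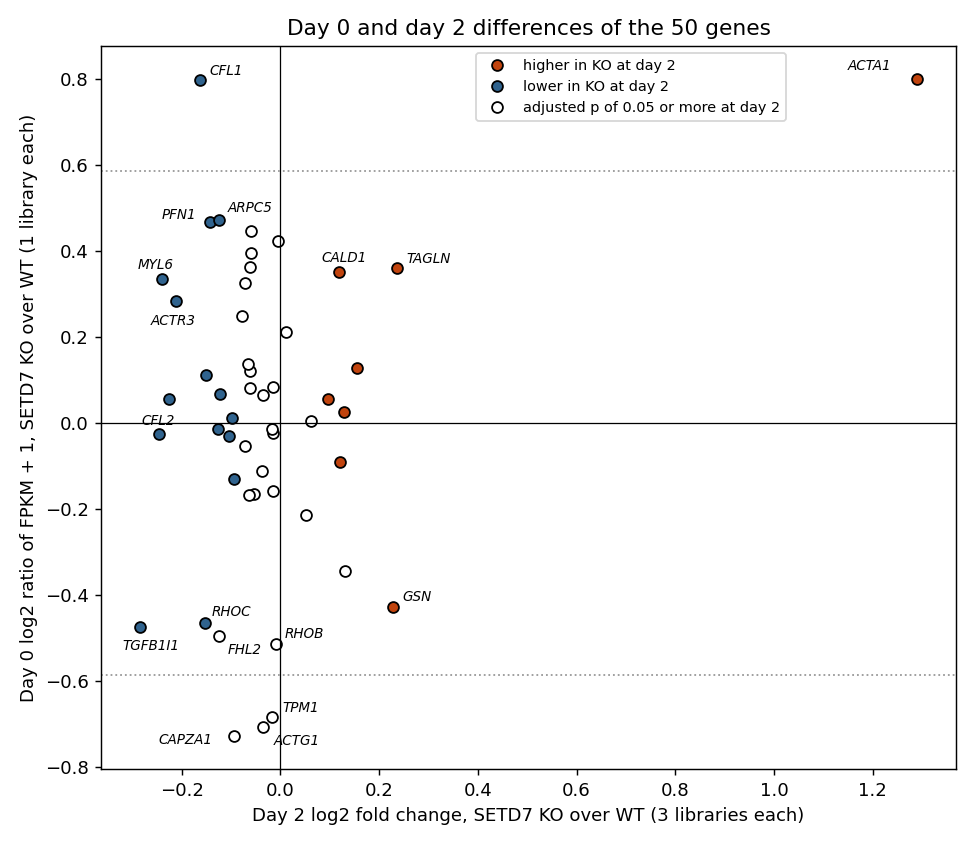
Log2 ratio at day 0 (FPKM + 1, 1 library each, no test) against the log2 fold change at day 2 (3 libraries each), SETD7 KO over WT, for the 50 genes, filled by the day 2 call, with dotted lines at 1.5-fold. ACTA1 is the one gene far from 0 on both axes, at 0.80 and 1.29, while CFL1 lies high at day 0 and below 0 at day 2.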

How the data were processed

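Counts per gene at day 2 and FPKM at day 0 were deposited, per the file headers, and the labels gave genotype, day and replicate. HISAT2, StringTie and GRCh38 are named in the submitters' processing notes; the counting tool, its strand setting and the annotation were not stated. The deposited counts ran from 27880068 to 39553614 per library. They were scaled by TMM, filtered with filterByExpr (11475 genes) and tested with edgeR 4.0.16 (robust quasi-likelihood F test, 2-sided, Benjamini-Hochberg adjustment over all 11475 genes, in R 4.3.3), with 4.14% as the common biological coefficient of variation. The deposited FPKM were compared as log2((SETD7 KO + 1)/(WT + 1)) for genes of at least 1 FPKM, with no test. Per-library values were named for the actins, SRF, RHOA, RHOB, RHOC, ROCK1, ROCK2 and the 14 called genes with the smallest p; other lists name up to 4 genes with the smallest p, and 1 gene that this rule would name is not reported here. Gene positions, lengths and overlaps came from GENCODE release 29. Alternatives used limma 3.58.1 and DESeq2 1.42.0. The steps were tested on simulated data. The genes and lists were chosen with earlier results of these data known.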

Additional observations from a re-analysis of the deposited data

Results flagged for a closer look

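In 11 genes of the list, all 3 SETD7 KO libraries lay on one side of all 3 WT libraries at day 2 while the single day 0 pair lay on the other side. These are 47.8% of the 23 genes of the list that did not overlap at day 2, against 59.9% of the 4082 such genes found at both days. This difference between the days was not tested, day 0 has 1 library per genotype, and the days are in different units. TAGLN2 had a log2 fold change of 0.12 at day 2 and a log2 ratio of -0.09 at day 0. CFL1 had -0.162 at day 2 and 0.80 at day 0, the widest gap. PFN1 had -0.142 at day 2 and 0.47 at day 0, MYL6 had -0.239 and 0.33, and ACTR3 had -0.211 and 0.28. ARPC3 had -0.15 at day 2 and 0.11 at day 0, ARPC5 had -0.125 and 0.47, and CAPZB had -0.099 and 0.01. The tropomyosins TPM2, TPM3 and TPM4 had -0.071, -0.077 and -0.062 at day 2, which did not pass the test, and 0.33, 0.25 and 0.36 at day 0.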

How the results depend on the processing

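The 8 genes higher and 15 lower at day 2 were unchanged with DESeq2 size factors, without the low-count filter, at a mean of at least 1 CPM (which leaves ACTA2 out), and with TMM factors computed without the list. Upper-quartile scaling gave 8 and 11, limma-voom 8 and 16, and DESeq2 7 and 12. Leaving out each library in turn gave 6 to 8 higher and 8 to 17 lower, the fewest lower without WT replicate 3. The test against a 1.2-fold change left 1 higher and 0 lower. Length and GC offsets, chosen after seeing the data, gave 9 and 21 and reversed FLNC (-0.08); the cause was not tested. Whether same-numbered libraries were paired is not stated. Their deviations from the genotype means correlated at -0.043, -0.238 and -0.164. With 3 libraries per genotype these deviations are tied to one another, so they cannot decide it. With the replicate block the counts were 7 and 10. At day 0 a pseudocount of 0.1 FPKM gave 5 genes lower past 1.5-fold instead of 3. Taken over the effective library size, the list held 2.61% of counts in SETD7 KO and 2.67% in WT, instead of 2.62% and 2.66%, and the genotypes no longer overlapped. Over the 5 further gene lists, 18 genes higher and 19 lower became 20 and 15 with upper-quartile scaling and 12 and 14 with the replicate block. ACTA2 and ARPC1B, under 3 CPM in every library, have the widest errors of the list.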
